A study of Rattus norvegicus with 12 samples.

Results

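Both immortal rat lines of the series, SIRMu-1 and rMC-1, were compared together with primary Müller cell cultures, giving each line the same weight. All 12 libraries of the series enter: 4 of primary cultures, 5 of SIRMu-1 and 3 of rMC-1. Of 17315 genes in the files, 11321 had counts high enough to test. Among them a gene was taken as common to the lines when its level in every one of the 8 line libraries lay on the same side of all 4 primary libraries. This held for 2825 genes (25%), called separated below. Levels are given as CPM, read counts scaled to a common library size.

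The primary cultures came from Sprague-Dawley rats at postnatal day 2-4 and were used at passage 3 or 4. SIRMu-1 is a line that arose by spontaneous immortalization from cells of the same strain and age, and its cultures were at passages 6, 11, 11, 11 and 20. rMC-1 came from adult Sprague-Dawley rats, is known as a line immortalized with the SV40 large T antigen, and was at passages 23, 26 and 26. Primary and SIRMu-1 cultures had 20% serum and rMC-1 had 10%, and all had 25 mM glucose and 2 mM glutamine. All primary cultures and SIRMu-1 replicates 3 and 5 had gentamicin at 87 mg/L with amphotericin B at 2.2 mg/L, and the other cultures had neither. Each line is 1 line grown in several cultures, so the spread within it is that between cultures and does not extend to other lines. Whether primary cultures shared an animal is not given, so p-values reflect the spread among the libraries at hand, and some of it may be technical. Passage was higher in every line library than in every primary library, so passage and immortality cannot be told apart here.

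Müller glia span the retina, support its neurons by clearing glutamate, potassium and water, and divide little in the healthy adult tissue. Cells taken into culture divide for a limited number of passages and then stop, an arrest held in part by the retinoblastoma pathway through inhibitors of cyclin-dependent kinases such as p21 (Cdkn1a) and p16 (Cdkn2a). Large T antigen is known to bind and block the retinoblastoma protein family. Arrested cultured cells are also known for swollen lysosomes, raised beta-galactosidase activity and secretion of proteases, chemokines and growth factor binding proteins.

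Libraries held 22582345 to 38125630 reads in genes. In rMC-1 the top 10 genes held 4.01% to 4.31% of them, against 12.8% to 22.9% in the other libraries, and the scaling factors were 1.26 to 1.28 in rMC-1 and 0.839 to 1.01 elsewhere. SIRMu-1 replicate 2 stood apart from the rest of its line in genes of cell division, as given below. Several Müller markers were nearly absent from the primary cultures: Aqp4 had 2 counts, Rlbp1 6 counts and Kcnj10 13 counts over the 4 libraries together.

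Averaged over the lines, 7295 genes (64.4% of those tested) passed edgeR's quasi-likelihood test against primary cultures at an adjusted p under 0.05. Of these, 3133 (27.7%) rose and 4162 (36.8%) fell. With libraries scaled by their totals alone, 4258 rose and 3197 fell, and the median of all genes shifted by 0.25 on the log2 scale. The split between higher and lower genes therefore rests on the scaling: 42.9% of called genes were higher with the scaling used here and 57.1% with totals. Every library of both lines lay above all primary libraries for 1385 genes (12.2%) and below them for 1440 (12.7%), of which 1385 (12.2%) and 1439 (12.7%) were also called in the same direction, 2824 in all (24.9%). With totals, 1189 of the 1385 and 1104 of the 1439 were still separated and called.

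The shared decreases were larger than the shared increases. Genes separated and called lower had a median log2 fold change of -2.85, against 1.04 for those higher and -0.12 for all genes tested. Of the 1439 lower genes, 946 were at least 2-fold lower in both lines and 424 at least 16-fold lower. Of the 1385 higher genes, 428 were at least 2-fold higher in both lines and 8 at least 16-fold higher. A whole group had no count for 256 of the lower genes and 1 of the higher. The fitted folds of these genes depend on the prior count, which limits the counts at 16-fold. With such genes set to a bound of 3 counts over the group, the medians stayed at -2.85 and 1.04. The median level of the lower genes was 19.9 CPM in primary cultures, 3.50 CPM in SIRMu-1 and 1.18 CPM in rMC-1. At the edge of the rule, Hscb entered with a lowest line library at 12.4372 CPM and a highest primary library at 12.4280 CPM, and Rfc2 was left out with 15.6394 CPM and 15.6451 CPM. On the lower side Ufsp2 entered with a highest line library at 57.3654 CPM against a lowest primary library at 57.3802 CPM, and Erp44 was left out with 140.157 CPM against 140.151 CPM.

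Genes of mitosis and the kinetochore rose together and led the shared increase. All 38 tested genes of a list of mitosis genes rose, and 35 (92.1%) were separated, beside 12.2% of all genes tested. Their median log2 fold change was 4.30 over both lines, with 3.43 in SIRMu-1 and 5.27 in rMC-1. Mki67, a nuclear protein of cycling cells, stood at 13.4, 13.5, 11.2 and 7.45 CPM in the primary libraries. In SIRMu-1 it stood at 226, 38.9, 173, 251 and 317 CPM, and in rMC-1 at 583, 622 and 572 CPM. All line libraries lay above the primary ones, SIRMu-1 replicate 2 was the lowest of them, and rMC-1 lay above SIRMu-1 throughout. The log2 fold change of Mki67 was 4.92 ± 0.51 (SE; edgeR adjusted p = 8.76e-06).

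Kinetochore and chromosome genes behaved the same way. Cenpf, a kinetochore protein, was at 5.33 to 10.4 CPM in primary cultures, 34.5 to 265 CPM in SIRMu-1 and 277 to 321 CPM in rMC-1, a rise of 4.74 ± 0.50 on the log2 scale (edgeR adjusted p = 9.17e-06). Top2a, the topoisomerase that untangles replicated chromosomes, was at 6.92 to 14.2 CPM, 41.5 to 310 CPM and 872 to 1067 CPM in the same order. Depdc1 rose from 1.35 ± 0.469 CPM (SD, n = 4) to 22 ± 7.84 CPM (SD, n = 5) in SIRMu-1 and 70.3 ± 11.4 CPM (SD, n = 3) in rMC-1. Cdk1, the kinase that drives entry into mitosis, stood at 11.2, 7.00, 7.2 and 4.10 CPM in primary cultures. It stood at 93.1, 21.9, 72.5, 103 and 105 CPM in SIRMu-1 and at 320, 330 and 361 CPM in rMC-1. Its 3 groups did not overlap, and its log2 fold change was 4.46 ± 0.45 (edgeR adjusted p = 7.02e-06). The list median in SIRMu-1 replicate 2 was 3.38 log2 CPM, between the primary libraries (1.53 to 2.5) and the other 4 SIRMu-1 libraries (4.87 to 5.41).

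**Figure D1:**
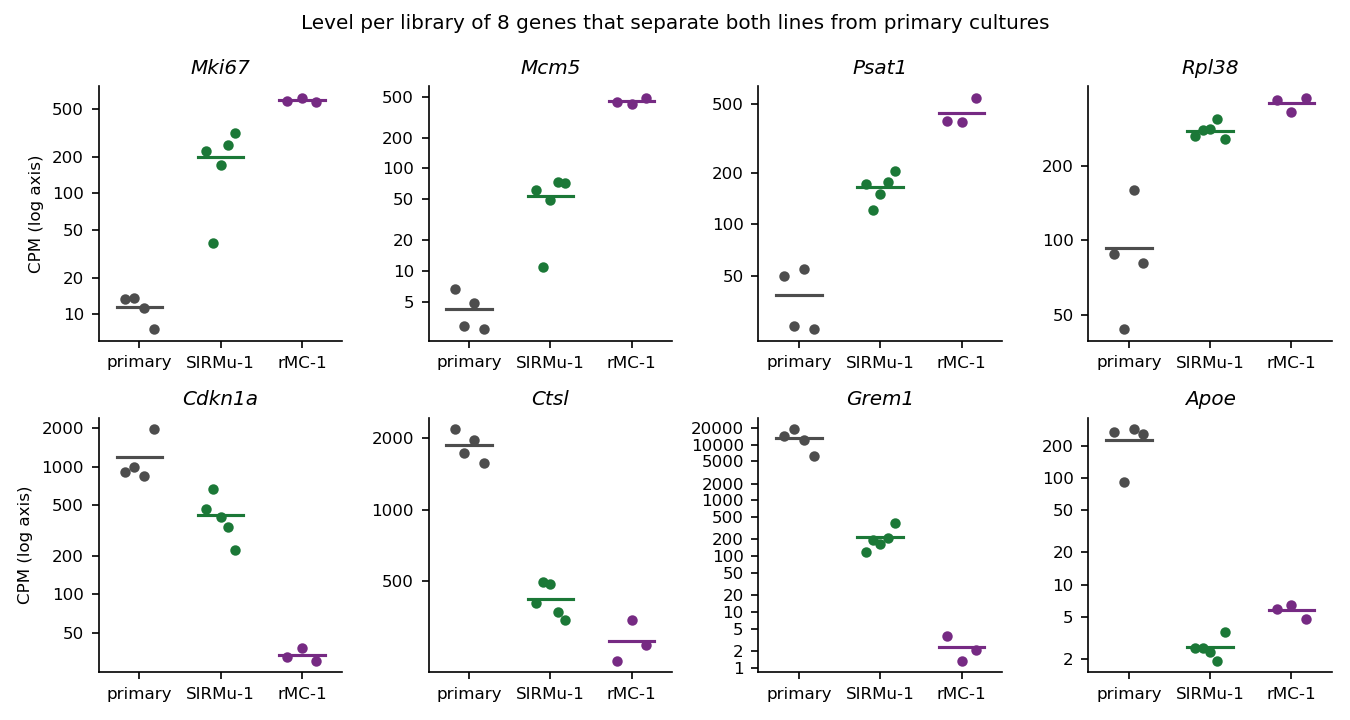
Level of 8 separated genes in each library, in CPM on a log axis. Each point is 1 library, each bar the mean of its group, and points of a group are drawn in the order of the replicate numbers. For the top row (Mki67, Mcm5, Psat1, Rpl38) all line libraries lie above the primary ones, and for the bottom row (Cdkn1a, Ctsl, Grem1, Apoe) all lie below. Mki67 in SIRMu-1 replicate 2 is the low green point at 38.9 CPM.

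The promoters of the mitosis genes share short motifs, shown here because these genes moved together. In RefSeq promoters on assembly GRCr8 (250 bases before to 50 after a gene's start), the letters TTTGAA, the core of the cell cycle homology region, were searched on both strands together with the CCAAT box. TTTGAA stood in 23 of the 31 mitosis genes with a promoter in the table (74.2%), in 11.2% of the promoters of all genes tested and in 18.3% of all 33469 promoters. Both motifs stood in 18 of the 31 (58.1%) and in 4.65% of all genes tested. Among genes separated and called, TTTGAA stood in 16.9% of those higher and 9.65% of those lower. TTTGAA and CCAAT, or their reverse complements, are in capitals in the promoters below, and in Mki67 a match of each motif overlaps with one of the other. The promoters are Cdk1 (chr20:19265043-19265342, plus strand), Mki67 (chr1:199952544-199952843, minus strand) and Top2a (chr10:84473044-84473343, minus strand).
Cdk1: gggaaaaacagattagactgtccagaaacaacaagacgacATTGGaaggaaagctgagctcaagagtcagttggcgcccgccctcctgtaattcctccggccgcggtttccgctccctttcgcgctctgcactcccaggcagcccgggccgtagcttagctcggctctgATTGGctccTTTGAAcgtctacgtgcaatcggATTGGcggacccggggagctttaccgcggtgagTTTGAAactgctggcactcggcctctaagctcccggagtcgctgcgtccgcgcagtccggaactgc
Mki67: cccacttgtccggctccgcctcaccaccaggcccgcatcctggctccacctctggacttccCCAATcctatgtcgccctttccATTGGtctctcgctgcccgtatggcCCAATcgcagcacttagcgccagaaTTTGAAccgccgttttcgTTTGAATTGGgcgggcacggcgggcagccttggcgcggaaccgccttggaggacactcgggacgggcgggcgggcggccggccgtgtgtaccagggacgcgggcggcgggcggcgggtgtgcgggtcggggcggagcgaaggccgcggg
Top2a: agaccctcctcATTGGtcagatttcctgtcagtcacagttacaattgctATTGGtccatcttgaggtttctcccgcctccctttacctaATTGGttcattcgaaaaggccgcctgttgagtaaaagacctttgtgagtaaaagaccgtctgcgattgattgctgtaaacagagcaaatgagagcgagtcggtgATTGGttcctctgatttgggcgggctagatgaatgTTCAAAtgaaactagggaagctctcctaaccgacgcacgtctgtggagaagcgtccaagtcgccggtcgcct
A match to these letters is a description of the sequence, not a binding site.

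Genes that copy DNA rose as well. All 38 tested genes of the replication and G1/S list rose and 33 (86.8%) were separated, with a median log2 fold change of 3.06 (1.96 in SIRMu-1 and 4.31 in rMC-1). Mcm5, a subunit of the helicase that opens replication origins, stood at 6.70, 2.88, 4.83 and 2.69 CPM in primary cultures. It stood at 62.0, 10.9, 48.8, 73.2 and 72.7 CPM in SIRMu-1 and at 441, 431 and 492 CPM in rMC-1. The groups did not overlap, SIRMu-1 replicate 2 again was lowest of the lines, and the log2 fold change was 5.19 ± 0.54 (edgeR adjusted p = 8.38e-06). Tk1, the thymidine kinase that salvages a DNA precursor, rose from 4.53 ± 0.669 CPM (SD, n = 4) to 69.2 ± 30.8 CPM (SD, n = 5) in SIRMu-1 and 193 ± 44.1 CPM (SD, n = 3) in rMC-1. Mybl2, a transcription factor of proliferating cells, rose by 5.25 ± 0.53 on the log2 scale (edgeR adjusted p = 7.14e-06).

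E2F factors, released when retinoblastoma proteins are inactivated, are known to switch on such replication genes. The E2F letters searched were TTTGGCGC, TTTCCCGC and TTTGGCGG, on both strands. They stood in 14 of the 31 replication genes with a promoter in the table (45.2%), in 3.93% of the promoters of all genes tested and in 1.90% of all 33469 promoters. Among genes separated and called they stood in 8.78% of those higher and 1.24% of those lower, and in none of the 31 mitosis promoters, which says only that these letters are not in those windows. The promoter of Mcm5 (chr19:13488563-13488862, plus strand, GRCr8), with a match on each strand in capitals, is shown as an example of the replication genes.
Mcm5: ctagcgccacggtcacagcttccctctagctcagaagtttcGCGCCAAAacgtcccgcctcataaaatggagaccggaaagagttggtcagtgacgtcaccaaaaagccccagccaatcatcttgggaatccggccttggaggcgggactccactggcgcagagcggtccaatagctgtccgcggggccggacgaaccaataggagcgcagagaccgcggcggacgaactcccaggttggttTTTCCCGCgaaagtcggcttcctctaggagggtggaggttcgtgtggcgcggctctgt

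Repair and chromatin genes followed division. Of 23 tested genes of DNA repair and checkpoints, 21 rose and 2 fell, and 19 (82.6%) were separated above primary cultures, among them Brca1, Brca2 and Fancd2. Clspn, which signals stalled replication forks, was at 0.705 to 1.93 CPM in primary cultures, 3.30 to 17.2 CPM in SIRMu-1 and 64.1 to 72.8 CPM in rMC-1. Of 23 chromatin genes, 15 rose and 11 (47.8%) were separated. Uhrf1, which guides DNA methylation to newly copied strands, rose from 2.03 to 3.43 CPM in primary cultures to 8.94 to 56.6 CPM in SIRMu-1 and 193 to 234 CPM in rMC-1. Asf1b, a histone chaperone, rose by 4.49 ± 0.41 on the log2 scale (edgeR adjusted p = 3.5e-06). Lmnb1, a nuclear lamina protein known to be lost in arrested cells, stood at 9.15, 4.57, 4.56 and 4.98 CPM in primary cultures. In SIRMu-1 Lmnb1 stood at 61.6, 19.2, 58.0, 79.2 and 75.4 CPM, and in rMC-1 at 184, 191 and 208 CPM. No library of 1 group overlapped with another, and its log2 fold change was 4.20 ± 0.40 (edgeR adjusted p = 4.53e-06).

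**Figure D2:**
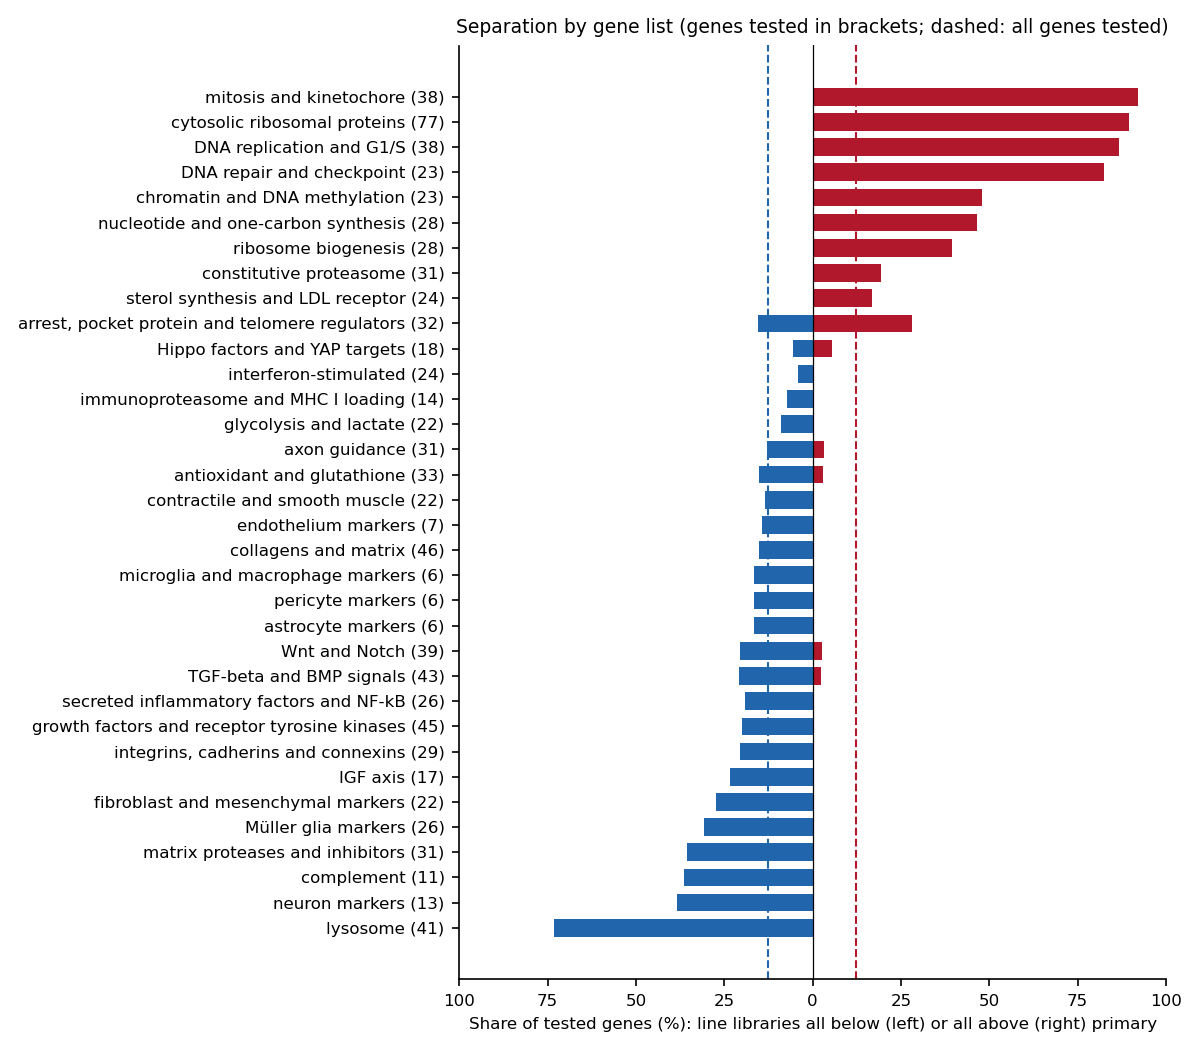
Share of the tested genes of each reported list (in %) for which all 8 line libraries lie above (red, right) or below (blue, left) all 4 primary libraries, for lists with at least 5 tested genes. Dashed lines mark the shares over all genes tested, 12.2% above and 12.7% below. Mitosis (92.1%), ribosomal proteins (89.6%) and replication (86.8%) reach farthest to the right, and the lysosome list farthest to the left (73.2%).

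The machinery that makes proteins was higher in both lines. Of 77 tested cytosolic ribosomal proteins 75 rose and 69 (89.6%) were separated, with a median log2 fold change of 1.27 (1.30 in SIRMu-1 and 1.22 in rMC-1). The lines differed in 19 of the 77. Rpl38, a protein of the large subunit, stood at 88.2, 43.9, 160 and 81.2 CPM in primary cultures. It stood at 263, 278, 282, 308 and 257 CPM in SIRMu-1 and at 369, 330 and 376 CPM in rMC-1, all above the primary libraries. Its log2 fold change was 1.76 ± 0.27 (edgeR adjusted p = 0.000143). Ribosomal protein genes have many near-identical pseudogene copies, and reads mapping to several places were counted apart, so their levels are uncertain.

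Of 28 genes of ribosome biogenesis 24 rose and 11 (39.3%) were separated. Fbl, which methylates ribosomal RNA, rose by 1.65 ± 0.20 on the log2 scale (edgeR adjusted p = 2.62e-05). Dkc1, which modifies ribosomal RNA and is also part of telomerase, rose by 1.24 ± 0.19 on the log2 scale (edgeR adjusted p = 0.000154). Of 31 subunits of the constitutive proteasome 18 rose, none fell and 6 (19.4%) were separated, beside 12.2% of all genes tested.

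Genes that supply nucleotides and one-carbon units rose too. Of 28 tested, 21 rose, none fell and 13 (46.4%) were separated, among them the purine synthesis genes Ppat, Gart, Paics and Gmps. Psat1, an enzyme of serine synthesis, stood at 49.9, 25.4, 55.0 and 24.3 CPM in primary cultures. It stood at 171, 121, 150, 176 and 203 CPM in SIRMu-1 and at 402, 393 and 547 CPM in rMC-1. The 3 groups did not overlap, and the log2 fold change was 2.81 ± 0.27 (edgeR adjusted p = 5.18e-06). Phgdh, the first enzyme of the same pathway, was at 61.9 to 114 CPM in primary cultures and at 194 to 282 CPM and 277 to 436 CPM in the lines. Shmt2, which passes serine carbon to folate in mitochondria, rose by 1.77 ± 0.15 on the log2 scale (edgeR adjusted p = 2.61e-06).

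Sterol synthesis rose in part. Of 24 tested genes 16 rose and none fell, but 4 (16.7%) were separated, beside 12.2% of all genes tested. The count was 7 without SIRMu-1 replicate 1, and 16 when the only SIRMu-1 libraries used were those with the drugs that the primary cultures also had (replicates 3 and 5). Fewer libraries make the rule easier to meet. Over all genes 1834 were then separated and called higher, against 1385 with all libraries. An effect of the drugs was not tested. Fdps, which makes farnesyl diphosphate, stood at 118, 89.6, 94.6 and 115 CPM in primary cultures. It stood at 158, 198, 297, 275 and 512 CPM in SIRMu-1 and at 498, 391 and 398 CPM in rMC-1. All lines lay above primary cultures and SIRMu-1 spread widely, with replicate 5 above every rMC-1 library. Idi1, an earlier step of the pathway, rose by 2.07 ± 0.29 on the log2 scale (edgeR adjusted p = 6.72e-05).

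Genes that hold cells in arrest moved both ways. Of 32 tested genes of arrest, retinoblastoma family and telomere regulation, 16 rose and 13 fell. Of them 9 (28.1%) were separated above and 5 (15.6%) below, beside 12.2% and 12.7% of all genes tested. Without SIRMu-1 replicate 2, 8 were separated below. Cdkn1a, the p21 inhibitor, stood at 910, 991, 845 and 1963 CPM in primary cultures. It stood at 463, 670, 406, 337 and 222 CPM in SIRMu-1 and at 32.6, 38.0 and 30.1 CPM in rMC-1. All line libraries lay below the primary ones, rMC-1 lay far below SIRMu-1, and primary replicate 4 was the highest of all. The log2 fold change of Cdkn1a was -1.49 ± 0.32 in SIRMu-1 and -5.13 ± 0.45 in rMC-1, and the lines differed by 3.64 ± 0.41 (edgeR adjusted p = 1.6e-05).

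The other inhibitors differed in pattern. Cdkn2b, the p15 inhibitor, was at 246 to 508 CPM in primary cultures, 52.4 to 263 CPM in SIRMu-1 and 114 to 120 CPM in rMC-1. It fell on average (log2 fold change -1.67 ± 0.37, edgeR adjusted p = 0.00204), and only SIRMu-1 replicate 2 overlapped with primary cultures. Cdkn2a, whose locus encodes p16 and p19ARF, stood at 43.5, 35.4, 32.1 and 163 CPM in primary cultures. It stood at 26.0, 31.7, 26.9, 24 and 28.1 CPM in SIRMu-1 and at 92.2, 83.1 and 88.5 CPM in rMC-1. SIRMu-1 lay below all primary cultures, and rMC-1 lay above 3 of them and below replicate 4. The average difference was -0.48 ± 0.37 on the log2 scale and did not pass (edgeR adjusted p = 0.278), and without primary replicate 4 it was 0.40 (edgeR adjusted p = 0.0119). Cdkn2c, the p18 inhibitor, rose in both lines, from 1.23 to 3.04 CPM to 10.4 to 31.1 CPM in SIRMu-1 and 40.4 to 45.6 CPM in rMC-1.

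E2f7, a repressor among the E2F factors and itself a gene of S phase, rose by 5.48 ± 0.53 on the log2 scale (edgeR adjusted p = 5.02e-06). Tert, the catalytic part of telomerase, stood at 1.85, 0.973, 1.12 and 3.26 CPM in primary cultures, at 1.14 to 1.94 CPM in SIRMu-1 and at 0.0790 to 0.412 CPM in rMC-1. SIRMu-1 overlapped with primary cultures and rMC-1 lay below both. Myc, a growth-promoting transcription factor, was at 12.8 to 31.3 CPM in primary cultures, 12.6 to 24.7 CPM in SIRMu-1 and 88.0 to 115 CPM in rMC-1, and the lines differed by -2.33 ± 0.26 on the log2 scale (edgeR adjusted p = 1.63e-05).

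Btg2, an antiproliferative gene, fell to about the same level in both lines, from 297 ± 63.0 CPM (SD, n = 4) to 112 ± 24.8 CPM (SD, n = 5) and 115 ± 63.7 CPM (SD, n = 3). Its lines differed by -0.04 ± 0.30 on the log2 scale. Mdm2, a ubiquitin ligase, was at 288 to 699 CPM in primary cultures, 108 to 337 CPM in SIRMu-1 and 86.4 to 97.5 CPM in rMC-1. Mdm2 fell on average (log2 fold change -1.58 ± 0.30, edgeR adjusted p = 0.000692), and SIRMu-1 replicate 2 overlapped with primary cultures.

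Lysosomal genes fell together and had the largest share separated below among the lists with at least 5 tested genes. Of 41 tested, 38 fell, 3 passed in neither direction and 30 (73.2%) were separated below primary cultures. The median log2 fold change was -1.52, with -0.98 in SIRMu-1 and -1.75 in rMC-1. The summed level of the list was 14045 to 17184 CPM in primary cultures, 6490 to 7720 CPM in SIRMu-1 and 4739 to 5513 CPM in rMC-1. The separated genes took in the membrane proteins Lamp1, Lamp2 and Scarb2, the proteases Ctsb, Ctsd, Ctsf and Lgmn, the lipid handlers Npc1, Npc2, Psap and Asah1, and subunits of the proton pump (Atp6ap1, Atp6v0d1, Atp6v1h).

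Ctsl, a lysosomal protease, stood at 2176, 1728, 1965 and 1574 CPM in primary cultures. It stood at 403, 495, 486, 372 and 344 CPM in SIRMu-1 and at 232, 345 and 269 CPM in rMC-1. Its lines lay close together and well below the primary cultures, a change of -2.43 ± 0.14 on the log2 scale (edgeR adjusted p = 1.93e-07). Ctsk, a collagen-degrading cathepsin, fell from 61.3 to 327 CPM to 1.04 to 1.8 CPM in SIRMu-1 and 1.13 to 3.19 CPM in rMC-1. Ctsh, an aminopeptidase, fell to 31.8 to 55.5 CPM in SIRMu-1 and 0.0412 to 0.158 CPM in rMC-1, and the lines differed by 8.84 ± 0.49 on the log2 scale (edgeR adjusted p = 1.12e-07). Glb1l, a relative of beta-galactosidase, stood at 309, 295, 309 and 270 CPM in primary cultures. It stood at 15.3, 15, 15.4, 14.4 and 12.8 CPM in SIRMu-1 and at 10.9, 10.9 and 9.72 CPM in rMC-1. Its replicates were close in every group, and its log2 fold change was -4.58 ± 0.08 (edgeR adjusted p = 1.79e-11).

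Glb1, which encodes the lysosomal beta-galactosidase used to stain arrested cells, is named here after its values were seen. It was at 133 to 286 CPM in primary cultures, 78.3 to 112 CPM in SIRMu-1 and 37.9 to 47.7 CPM in rMC-1 (log2 fold change -1.84 ± 0.18, edgeR adjusted p = 5.43e-06). The E-box letters CACGTG, a core that the lysosomal regulator TFEB is known to bind, stood on either strand in 8 of the 29 lysosomal genes with a promoter in the table (27.6%). They stood in 9.33% of the promoters of all genes tested, in 9.38% of genes separated and called lower and in 6.42% of all promoters. The Glb1 promoter (chr8:122963468-122963767, plus strand, GRCr8) is shown with the match in capitals, as an example of a lowered gene.
Glb1: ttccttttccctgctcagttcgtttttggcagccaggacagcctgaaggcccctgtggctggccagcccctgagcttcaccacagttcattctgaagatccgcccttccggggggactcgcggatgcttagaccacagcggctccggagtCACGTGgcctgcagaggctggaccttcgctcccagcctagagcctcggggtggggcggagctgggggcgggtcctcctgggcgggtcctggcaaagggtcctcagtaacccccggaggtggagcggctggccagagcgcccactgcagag

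**Figure D3:**
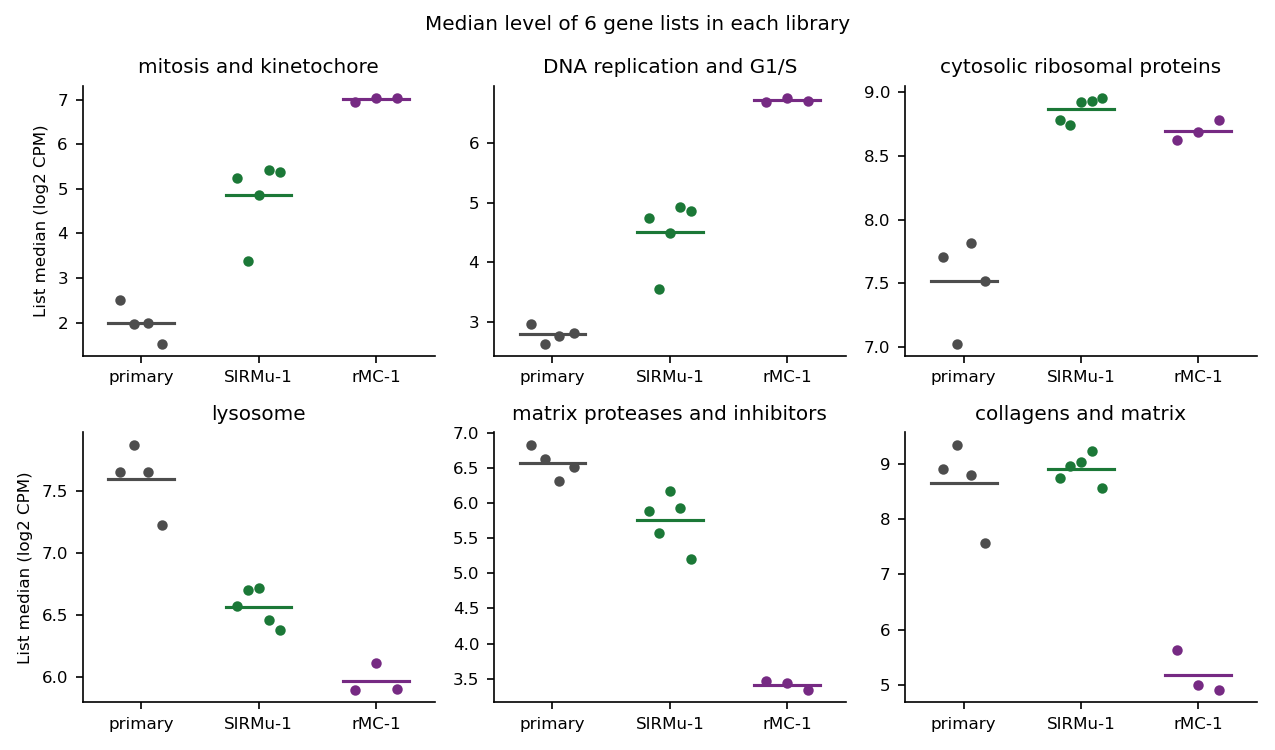
Median level (log2 CPM) of 6 gene lists in each library. Each point is 1 library and each bar the mean of its group. The lists of mitosis, replication, ribosomal proteins, lysosome and matrix proteases part both lines from all primary libraries, and in the collagens and matrix list SIRMu-1 overlaps with primary cultures. SIRMu-1 replicate 2 is the low green point for mitosis, at 3.38.

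The extracellular matrix fell mostly in rMC-1. Of 46 tested genes of collagens and matrix 38 fell and none rose, yet 7 (15.2%) were separated, beside 12.7% of all genes. Leaving out primary replicate 4 gave 12, and leaving out SIRMu-1 replicate 2 gave 11. The median log2 fold change was -0.53 in SIRMu-1 and -4.05 in rMC-1. Col1a1, a chain of type I collagen, stood at 60055, 56080, 92014 and 17868 CPM in primary cultures. It stood at 31722, 31718, 36427, 43150 and 40700 CPM in SIRMu-1 and at 3875, 3183 and 2583 CPM in rMC-1. SIRMu-1 lay inside the primary range and rMC-1 below it, and the lines differed by 3.52 ± 0.46 on the log2 scale (edgeR adjusted p = 4.96e-05). Fn1, fibronectin, was at 33124 to 58413 CPM in primary cultures, 24304 to 43064 CPM in SIRMu-1 and 1352 to 1733 CPM in rMC-1. SIRMu-1 replicates 1 and 5 lay below every primary library for Fn1, and the other 3 overlapped.

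The matrix genes that fell in both lines were others. Mgp, an inhibitor of calcification, stood at 106, 342, 1834 and 207 CPM in primary cultures and at 0 to 0.126 CPM and 0 to 0.199 CPM in the lines. Dcn, a proteoglycan of fibroblast matrix, was at 110 to 1962 CPM in primary cultures, 0.165 to 20.3 CPM in SIRMu-1 and 0.536 to 0.968 CPM in rMC-1. Its highest SIRMu-1 library was replicate 5, at passage 20, and its log2 fold change was -8.50 ± 1.38 (edgeR adjusted p = 0.000221). Col15a1, a collagen of basement membranes, stood at 808, 95.8, 76.2 and 103 CPM in primary cultures and at 8.12 to 26.1 CPM in SIRMu-1, and had no count in rMC-1.

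Proteases of the matrix separated more often. Of 31 tested genes of matrix proteases and their inhibitors 27 fell, none rose and 11 (35.5%) were separated. They included Mmp2, Mmp19, Timp1, Timp3, Adamts7 and Reck. The median log2 fold change of the list was -1.01 in SIRMu-1 and -3.07 in rMC-1. Mmp3, a stromelysin, varied strongly between primary cultures, at 1.54, 1.38, 11.6 and 79.1 CPM. It had no count in SIRMu-1 and 1 count in rMC-1. Serpine2, an inhibitor of thrombin and plasminogen activators, stood at 1073, 302, 936 and 536 CPM in primary cultures. It stood at 35.4, 39.2, 33.1, 54.8 and 47.7 CPM in SIRMu-1 and at 0.171, 0.227 and 0.132 CPM in rMC-1. The 3 groups lay far apart, with log2 fold changes of -4.08 ± 0.34 and -11.92 ± 0.62 (edgeR adjusted p of the average = 4.98e-08).

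Receptors that hold cells to the matrix and to each other fell in part. Of 29 integrins, cadherins and connexins 22 fell, 1 rose and 6 (20.7%) were separated. Itga11, a collagen receptor, was at 538 to 2152 CPM in primary cultures, 48.9 to 300 CPM in SIRMu-1 and 40.3 to 75.4 CPM in rMC-1. Cdh2, the N-cadherin of neural cells, stood at 111, 50.3, 31.6 and 244 CPM in primary cultures. It stood at 1.39, 5.44, 2.81, 23.7 and 1.76 CPM in SIRMu-1 and at 7.86, 0.536 and 0.869 CPM in rMC-1. SIRMu-1 replicate 4 came near the lowest primary library, and the log2 fold change was -4.56 ± 0.93 (edgeR adjusted p = 0.00114). Of 22 contractile genes 13 fell on average and 3 (13.6%) were separated, near the background. Their median log2 fold change was 0.20 in SIRMu-1 and -2.85 in rMC-1. Myh11, a smooth muscle myosin, was at 9.93 to 151 CPM in primary cultures, highest in replicate 4, and at 5.78 to 9.44 CPM and 4.11 to 5.83 CPM in the lines.

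Among secreted signals was Grem1, a BMP antagonist. It stood at 14001, 18962, 12223 and 6375 CPM in primary cultures. In SIRMu-1 it stood at 119, 197, 165, 211 and 401 CPM, and in rMC-1 at 3.73, 1.34 and 2.08 CPM. The groups did not overlap, and the log2 fold change was -5.88 ± 0.47 in SIRMu-1 and -12.41 ± 0.78 in rMC-1 (edgeR adjusted p of the average = 9.89e-08). Of 43 tested genes of TGF-beta and BMP signals 31 fell and 4 rose, with 9 separated below (20.9%) and 1 above. Leaving out primary replicate 4 gave 3 above, and leaving out SIRMu-1 replicate 4 gave 2. Ligands (Tgfb1, Tgfb2, Inhba, Gdf15) and receptors (Tgfbr2, Acvr1, Acvrl1, Eng) were both among those below. The median log2 fold change of the list was -0.13 in SIRMu-1 and -1.71 in rMC-1. Eng, a co-receptor for TGF-beta and BMP, stood at 631, 770, 11.4 and 477 CPM in primary cultures and at 0.124 to 0.441 CPM and 0.0855 to 0.342 CPM in the lines. Primary replicate 3 was far below the other 3 and still above every line library.

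Growth factor genes fell on average over the lines, and few were separated. Of 17 tested genes of the insulin-like growth factor axis 13 fell, 1 rose and 4 (23.5%) were separated below. The median log2 fold change of that list was -0.42 in SIRMu-1 and -4.45 in rMC-1. Igf1, the ligand, stood at 128, 296, 30.6 and 69.0 CPM in primary cultures. It had 3 counts over the 5 SIRMu-1 libraries, and stood at 3.73, 16.1 and 5.95 CPM in rMC-1. Igfbp3, a binding protein that limits the ligand, was at 200 to 738 CPM in primary cultures, 2.67 to 138 CPM in SIRMu-1 and 0.0206 to 0.184 CPM in rMC-1, with the highest SIRMu-1 value in replicate 2. Igfbp5 fell by 7.94 ± 1.05 on the log2 scale (edgeR adjusted p = 4.59e-05).

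Of 45 growth factors and receptor tyrosine kinases 28 fell, 2 rose and 9 (20.0%) were separated below, among them the ligands Fgf1, Fgf2, Fgf10, Gdnf and Mdk. The list median was -0.58 in SIRMu-1 and -1.97 in rMC-1. Fgfr1, an FGF receptor, stood at 62.3, 175, 141 and 145 CPM in primary cultures. It was at 0 to 0.629 CPM in SIRMu-1 and 0.144 to 0.997 CPM in rMC-1, a change of -8.88 ± 0.66 on the log2 scale (edgeR adjusted p = 9.27e-07).

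Of 39 Wnt and Notch genes 26 fell, 4 rose, 8 (20.5%) were separated below and 1 above, or 2 above without primary replicate 1. Those below held the secreted Wnt antagonists Sfrp1, Sfrp4, Dkk3 and Wif1. The median log2 fold change of the list was -0.85 in SIRMu-1 and -2.18 in rMC-1. Sfrp1 was at 3.71 to 22.2 CPM in primary cultures and had 1 count over all 8 line libraries. Of 18 Hippo and YAP genes 1 was separated below and 1 above, Tead2, a DNA-binding partner of YAP. The count below was 2 without primary replicate 3 or SIRMu-1 replicate 3, and the count above 2 without SIRMu-1 replicate 5. Tead2 was at 15.2 to 36.4 CPM in primary cultures, 68.0 to 83.5 CPM in SIRMu-1 and 120 to 128 CPM in rMC-1 (log2 fold change 2.04 ± 0.20, edgeR adjusted p = 6.03e-06).

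Of 31 axon guidance genes 17 fell and 4 rose, with 4 (12.9%) separated below and 1 above, or 7 and 2 without primary replicate 3. Of all genes tested 12.7% were separated below and 12.2% above, so the share below was near that of genes at large. The median log2 fold change of the list was -0.10 in SIRMu-1 and -1.46 in rMC-1. Unc5c, a netrin receptor, stood at 182, 590, 52.1 and 183 CPM in primary cultures, at 6.32 to 28.5 CPM in SIRMu-1 and at 0 to 0.114 CPM in rMC-1. Nrp2, a semaphorin receptor, was at 355 to 481 CPM in primary cultures, 24 to 177 CPM in SIRMu-1 and 54.4 to 75.3 CPM in rMC-1.

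Chemokines and complement fell, and interferon genes were not a shared change. Of 26 secreted inflammatory and NF-kB genes 18 fell, none rose and 5 (19.2%) were separated, or 8 without primary replicate 2 or replicate 3. Ccl2, which attracts monocytes, stood at 25.6, 16.8, 28.3 and 205 CPM in primary cultures. It stood at 0.0711, 0.252, 0.784, 0.296 and 0.337 CPM in SIRMu-1 and at 5.84, 1.40 and 2.61 CPM in rMC-1. Here rMC-1 lay closer to primary cultures than SIRMu-1 did, by -3.25 ± 0.93 on the log2 scale (edgeR adjusted p = 0.00946), and primary replicate 4 was the highest library. Ccl7, its neighbour in function, fell from 16.6 to 181 CPM to 0.150 CPM or less in every line library. Of 11 complement genes 9 fell and 4 (36.4%) were separated. C2, a protease of the classical pathway, fell from 28.8 to 128 CPM to 2.30 to 6.14 CPM in SIRMu-1 and 3.13 to 4.53 CPM in rMC-1, and the lines differed by 0.10 ± 0.41 on the log2 scale.

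Of 24 interferon-stimulated genes 11 fell, 2 rose and 1 (4.2%) was separated, Ifitm1, at 0.939 to 37.7 CPM in primary cultures and 0 to 0.450 CPM over the lines. The count was 2 without primary replicate 3 or SIRMu-1 replicate 1. The median log2 fold change of the list was -1.61 in SIRMu-1 and 0.50 in rMC-1, and SIRMu-1 was the lower line in 20 of the 24. Of 14 genes of MHC class I loading 5 rose and 4 fell, with list medians of -0.63 in SIRMu-1 and 0.64 in rMC-1. Only 1 was separated, B2m, the light chain of MHC class I. B2m stood at 506, 526, 608 and 617 CPM in primary cultures, 320 to 460 CPM in SIRMu-1 and 434 to 493 CPM in rMC-1, a change of -0.43 ± 0.11 on the log2 scale (edgeR adjusted p = 0.0044). With library totals it was -0.18 (edgeR adjusted p = 0.185) and no gene of that list was separated, as also without rMC-1 replicate 1, rMC-1 replicate 3 or SIRMu-1 replicate 5.

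Müller glia markers fell more often than genes at large. Of 26 tested 18 fell, 4 rose and 8 (30.8%) were separated below: Vim, S100b, Apoe, Car2, Dkk3, Gpr37, Slc38a3 and Spon1. Of these Car2 and Gpr37 had counts almost only in primary cultures and could only come out lower. Other members went the other way and are named after their values were seen, with counts over the primary, SIRMu-1 and rMC-1 libraries. Hes1 had 14072, 35436 and 48334 and Notch1 1341, 3534 and 12889. Lhx2 (360, 388 and 5548) and Pax6 (1012, 372 and 9199) were higher in rMC-1 alone. Apoe, the lipid carrier made by Müller glia, stood at 265, 91.8, 285 and 256 CPM in primary cultures. It stood at 2.56, 2.55, 2.35, 1.94 and 3.63 CPM in SIRMu-1 and at 5.95, 6.47 and 4.82 CPM in rMC-1. The primary libraries lay far above both lines, and the log2 fold change was -5.86 ± 0.29 (edgeR adjusted p = 6.95e-08). Vim, the main intermediate filament, fell less, from 5422 to 7098 CPM to 2847 to 3985 CPM in SIRMu-1 and 1305 to 1430 CPM in rMC-1.

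Car2, a carbonic anhydrase, had 725 counts in primary cultures and none in the 8 line libraries, at least 654-fold lower against a floor of 3 counts over the lines. S100b, a calcium-binding glial protein, was at 1.76 to 21.8 CPM in primary cultures, highest in replicate 4, and at 0.0413 to 0.503 CPM and 0.316 to 0.474 CPM in the lines. Gpr37, a glial receptor, fell from 0.537 to 5.56 CPM to 0.0826 CPM or less in every line library. Glul, the glutamine synthetase that handles glutamate, stood at 161, 114, 67.7 and 228 CPM in primary cultures. It was at 39.7 to 87.7 CPM in SIRMu-1 and 52.0 to 60.1 CPM in rMC-1. It fell (log2 fold change -1.36 ± 0.28, edgeR adjusted p = 0.0011), and only SIRMu-1 replicate 5 overlapped with primary cultures.

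Markers that identify Müller glia by transcription factor parted the lines from each other. Sox9 was at 37.2 to 83.8 CPM in primary cultures, 22 to 107 CPM in SIRMu-1 and 0 to 0.0790 CPM in rMC-1. Sox2 stood at 1.10, 0.487, 0.224 and 8.15 CPM in primary cultures, had no count in SIRMu-1 and was at 11.9 to 18 CPM in rMC-1. Its average difference did not pass (edgeR adjusted p = 0.0527). It passed with DESeq2 (adjusted p = 0.00403) and without primary replicate 2 (edgeR adjusted p = 0.0410) or replicate 3 (0.0259). It turned positive with equal weight per library, a fit with 1 mean for all line libraries. Rlbp1, the retinaldehyde carrier of Müller glia, was at 0 to 0.134 CPM in primary cultures, 0.0944 to 0.230 CPM in SIRMu-1 and 0.632 to 1.25 CPM in rMC-1. Gfap, raised in reactive glia, was at 2.10 to 3.00 CPM in 3 primary libraries and 19.3 CPM in replicate 4. It was at 0.535 to 1.24 CPM in SIRMu-1 and 2.79 to 3.99 CPM in rMC-1, and its average difference of -1.92 ± 0.55 (edgeR adjusted p = 0.00884) became -0.51 (edgeR adjusted p = 0.13) without primary replicate 4 and -1.88 (edgeR adjusted p = 0.0518) with equal weight per library. Cd44, a hyaluronan receptor, was at 193 to 731 CPM, 127 to 237 CPM and 243 to 267 CPM in primary, SIRMu-1 and rMC-1 libraries and overlapped through primary replicate 3.

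Markers of other cell types moved both ways, and in RNA from whole cultures fewer cells of a type and less RNA per cell cannot be told apart. Of 22 tested fibroblast and mesenchymal markers 15 fell, 2 rose and 6 (27.3%) were separated, and the list summed to 1852 to 5218 CPM in primary cultures, 878 to 2105 CPM in SIRMu-1 and 504 to 668 CPM in rMC-1. The median log2 fold change of the list was -0.14 in SIRMu-1 and -4.39 in rMC-1. Thy1, a surface protein of fibroblasts and ganglion cells, stood at 920, 1078, 133 and 134 CPM in primary cultures. It had 4 counts over the SIRMu-1 libraries and 26 over those of rMC-1. Members that rose in SIRMu-1 are named here after their values were seen. Foxc2, a mesenchymal transcription factor, was at 2.41 to 48.6 CPM in primary cultures, 125 to 257 CPM in SIRMu-1 and 0.114 CPM or less in rMC-1. Twist1, another such factor, was at 15.2 to 32.1 CPM, 47.5 to 72.2 CPM and 21.7 to 24.7 CPM in the same order.

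Of 13 tested neuron markers 8 fell, 1 rose and 5 (38.5%) were separated, or 3 without primary replicate 1 or replicate 4. Without these replicates 120 or 116 of all separated and called genes were no longer tested. The lower count thus need not mean lost separation. A whole group had no count for 5 of the 13. Members with counts almost only in primary cultures, such as Nefl and Nefm, entered the test through them. They could only come out lower, which limits the share separated. The list summed to 369 to 1258 CPM in primary cultures, 149 to 617 CPM in SIRMu-1 and 138 to 188 CPM in rMC-1. Its median log2 fold change was -5.04, and -3.76 with genes at 0 in a line set to their bound. Nefm, a neurofilament, was at 11.3 to 63.7 CPM in primary cultures and had no count in SIRMu-1 and 2 in rMC-1. Nefl had 130 counts in primary cultures and none in either line, at least 117-fold lower. Uchl1, a ubiquitin hydrolase abundant in neurons, stood at 254, 115, 71.2 and 317 CPM in primary cultures and at 0.787 to 16.0 CPM and 0.598 to 5.33 CPM in the lines. Abundant members of the list that did not follow, named after their values were seen, were Map2 and Stmn2. Map2, a microtubule protein of dendrites, was at 8.20 to 56.7 CPM in primary cultures, 45.4 to 266 CPM in SIRMu-1 and 7.72 to 21.8 CPM in rMC-1. Stmn2, a regulator of microtubules in growing axons, was at 50.8 to 481 CPM, 54.1 to 302 CPM and 0.0527 CPM or less in the same order.

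Smaller lists held few tested genes. As in the neuron list, members with counts almost only in primary cultures (Tyrp1, Mlana, Mrc1 and Kdr) could only come out lower. Of 4 tested pigment cell markers Tyrp1 and Mlana were separated below and Krt8 above. Their list summed to 25.5 to 43.5 CPM in primary cultures, 13.6 to 25.7 CPM in SIRMu-1 and 60.6 to 97.6 CPM in rMC-1, with Otx2 at 0 everywhere. Without primary replicate 1, 2 or 3, 1 gene was separated below. As for the neuron list, this lower count can come from genes no longer tested. Tyrp1, a melanin enzyme, was at 4.34 to 7.84 CPM in primary cultures and Mlana at 0.220 to 14.7 CPM, with 2 counts and 1 count over all line libraries. Krt8, an epithelial keratin, rose from 2.21 to 8.15 CPM to 8.54 to 21.2 CPM in SIRMu-1 and 46.8 to 84.4 CPM in rMC-1, and was not separated with library totals.

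Of 6 tested microglia and macrophage markers 1 was separated, Mrc1, at 0.134 to 5.76 CPM in primary cultures with 5 counts over the line libraries. The count was 0 without primary replicate 1, 2 or 4, and 2 without primary replicate 3 or SIRMu-1 replicate 2. Leaving out primary replicate 1, 2 or 4 also took 120, 118 or 116 separated and called genes out of the test. A count of 0 there thus need not mean lost separation. With library totals the count was also 0, with 11321 genes tested as in the main fit. That list summed to 4.43 to 31.0 CPM, 1.61 to 6.26 CPM and 2.71 to 4.30 CPM, and C1qa, C1qb, C1qc, Aif1, Trem2, Cx3cr1 and P2ry12 were at 0 in both lines. Of 7 endothelium markers Kdr was separated, at 0.492 to 8.73 CPM in primary cultures with 2 counts over the line libraries, or 2 genes without primary replicate 2 or without any 1 rMC-1 library. The endothelium list summed to 21.5 to 69.1 CPM, 192 to 469 CPM and 11.2 to 17.7 CPM, with Cldn5 at 0 everywhere. Flt1, a VEGF receptor named after its values were seen, was at 6.03 to 39.8 CPM in primary cultures, 144 to 424 CPM in SIRMu-1 and 3.40 to 6.27 CPM in rMC-1. Of 6 pericyte markers 6 fell on average over the lines and 1 was separated, or 2 without primary replicate 3 or any 1 rMC-1 library. Their sums were 1215 to 2636 CPM, 1003 to 1664 CPM and 120 to 178 CPM. Not all fell in SIRMu-1, and 2 members are named after their values were seen. Cspg4 had 8323 counts over the primary libraries, 41233 over SIRMu-1 and 30 over rMC-1, and Notch3 had 2120, 3501 and 308. Of 6 astrocyte markers S100b alone was separated, or 2 genes without any 1 rMC-1 library, with sums of 423 to 990 CPM, 527 to 901 CPM and 400 to 435 CPM. The part of other cell types in the shared decreases was not tested.

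Few genes of defence against oxidants and of sugar use were separated. Of 33 antioxidant and glutathione genes 15 fell and 6 rose, with 5 (15.2%) separated below and 1 above. Over all genes tested 12.7% were separated below and 12.2% above. The count below was 8 without primary replicate 2 or replicate 3. Above, leaving out primary replicate 4 gave 4 and leaving out SIRMu-1 replicate 5 gave 2. Sod3, the secreted superoxide dismutase, stood at 106, 259, 367 and 350 CPM in primary cultures. It stood at 9.89, 18, 17.8, 13.7 and 3.03 CPM in SIRMu-1 and at 0.0855, 0.103 and 0.184 CPM in rMC-1, a change of -7.74 ± 0.54 on the log2 scale (edgeR adjusted p = 5.75e-07). The 3 groups lay in separate ranges. Hmox1, a heme oxygenase induced by oxidants, was at 389 to 1133 CPM in primary cultures, 157 to 234 CPM in SIRMu-1 and 36.7 to 50.2 CPM in rMC-1. Of 22 glycolysis genes 9 fell, 2 rose and 2 (9.1%) were separated. The lines differed in 12 of the 22, with SIRMu-1 lower in 11. The median level of that list was 6.42 to 7.18 log2 CPM in primary cultures, 5.75 to 6.14 in SIRMu-1 and 7.29 to 7.45 in rMC-1. By this median level the lines lay on opposite sides of the primary cultures. Gene by gene, the median log2 fold change of the list was -0.48 in SIRMu-1 and 0.01 in rMC-1. Hk1, a hexokinase, fell with log2 fold changes of -0.71 ± 0.11 in SIRMu-1 and -0.66 ± 0.12 in rMC-1.

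**Figure D4:**
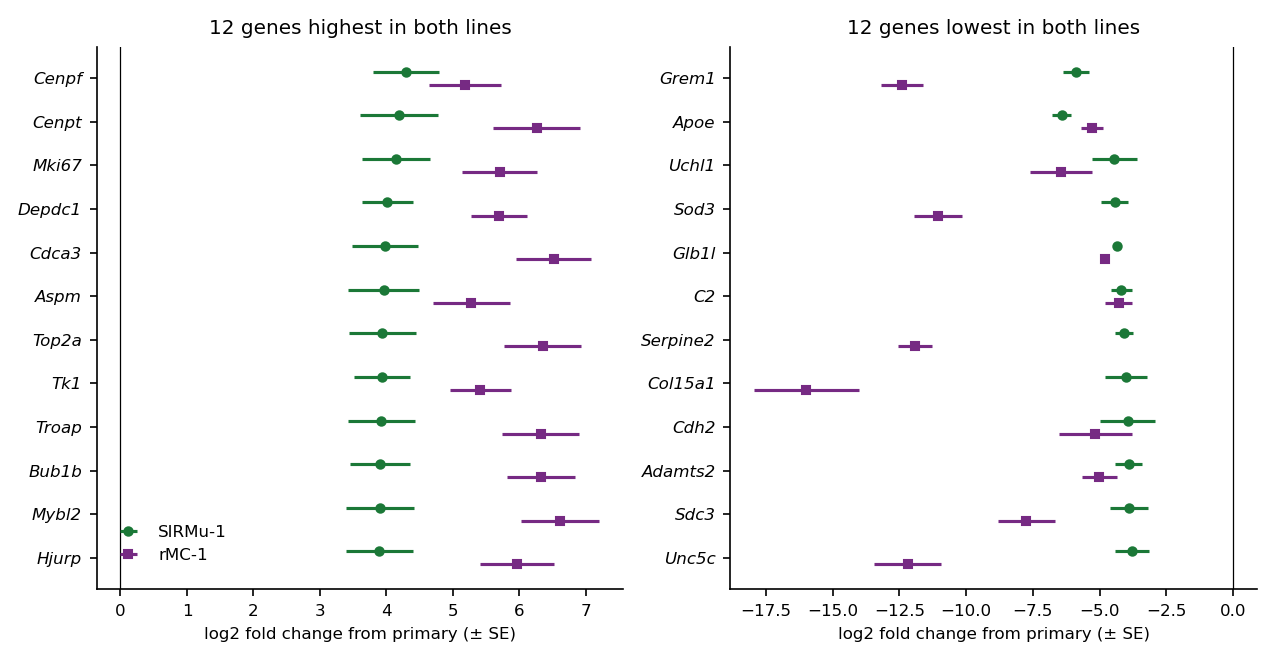
Log2 fold change from primary cultures (± SE) in SIRMu-1 (green circles) and rMC-1 (purple squares) for the 12 genes highest and the 12 lowest in both lines among separated and called genes with a mean log2 CPM of at least 3, ordered by the smaller change. Genes below that level, such as Mgp, Thy1, Eng and Cenpa, are not plotted whatever their change. Among the higher genes SIRMu-1 lies between 3.89 and 4.30 and rMC-1 above it for each. Among the lower genes Apoe alone has the larger change in SIRMu-1, and the rMC-1 value of Col15a1 is a fitted value for a gene with no count there.

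The shared changes were larger in rMC-1 than in SIRMu-1. The lines differed in 7157 of all genes tested (63.2%; edgeR adjusted p under 0.05). Among the 1385 genes separated and called higher they differed in 891 (64.3%), and rMC-1 was the higher line in 838 of these. Among the 1439 lower genes they differed in 676 (47.0%), and SIRMu-1 was the higher line in 563 of these. For the other 763 lower genes no difference between the lines passed. The median log2 fold change of the higher genes was 0.75 in SIRMu-1 and 1.27 in rMC-1, and that of the lower genes -1.95 and -3.14. Both lines were compared with the same 4 primary libraries, so these values share their controls. By library, the higher genes had a median log2 distance from the primary mean of 0.63 to 0.88 in SIRMu-1 and 1.25 to 1.33 in rMC-1, and SIRMu-1 replicate 2 was lowest. Serum, donor age, passage and the route of immortalization all differed between the lines, and their parts in this difference cannot be told apart.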

How the data were processed

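Poly(A) RNA of 12 cultures was sequenced, and per the labels' protocols a stranded library kit was used. The tools listed per the submitters' processing notes are STAR 2.5.3a, cutadapt 1.8.1 and edgeR 3.18.1, and the build is rn6. No source used here gives each tool's role, the annotation or whether counting used strand. The authors deposited whole-number read counts per gene for each library, not normalized. Reads in no gene (24.2% to 30.3% of a library), with several mapping places (9.47% to 12.3%), unmapped (1.84% to 2.54%) or ambiguous (0.15% to 0.19%) were kept out of library sizes. Overlapping genes and genes with near-identical copies have uncertain counts.

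Counts were tested with edgeR 4.0.16 in R 4.3.3: filterByExpr on the 3 groups (11321 genes tested, 5994 not), TMM factors, and a quasi-likelihood fit with a mean per group and 9 residual degrees of freedom. The main contrast set the mean of both line coefficients against primary cultures. Benjamini-Hochberg adjustment ran over all tested genes, and "rose", "fell" and "called" mean an adjusted p under 0.05. CPM are on the TMM scale. Log2 CPM in list medians used a prior count of 2. The code was tested on simulated data.

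The comparison, its genes and the 38 gene lists (1127 entries, 1058 in the files) were chosen with earlier results of these data known, so list counts are descriptions set beside the share of all genes. Text genes were the 12 highest and 12 lowest by the smaller change of the lines, among separated and called genes with a mean log2 CPM of at least 3, up to 3 separated genes per list, and a set named whatever its values (such as Mki67, Cdkn2a, Tert, Glul and Sox9). Lists of genes without values name members that met the rule of separation. Promoters came from RefSeq (GRCr8) and were matched by symbol for 9154 of the 11321 genes. Same-numbered libraries of different groups did not deviate together, with correlations of -0.06 to 0.10. The alternatives tried were other scalings, filters and weights, DESeq2 1.42.0, a replicate block, summed libraries, matched drugs, a fold minimum and leaving out each library. A deposited table of log2 CPM was not used. Some genes and 1 gene list are not reported here.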

Additional observations from a re-analysis of the deposited data

Results flagged for a closer look

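Single libraries lay far from the rest of their group for 23 genes and 4 lists. In all 225 groups of values were examined (genes at 1 CPM or more in SIRMu-1, both groups of 4 or more libraries). Chance gives about 1 in 20 for independent values with a normal spread. CPM of genes need not have that spread and share their libraries, so the rate here is not known. Primary replicate 4 was the library concerned for 12 of the genes. It was far above the other primary cultures for Cdkn1a (1963 CPM), Mdm2 (699 CPM), Cdkn2a (163 CPM), Ccl2 (205 CPM), Mmp3 (79.1 CPM), Myh11 (151 CPM), Hk1 (283 CPM), S100b (21.8 CPM), Gfap (19.3 CPM), Sox2 (8.15 CPM) and Nefl (4.19 CPM), and below them for Top2a (6.92 CPM). In the other primary libraries, replicate 1 was high for Lmnb1 (9.15 CPM) and Col15a1 (808 CPM), replicate 2 low for Apoe (91.8 CPM) and high for Igfbp5 (477 CPM), and replicate 3 high for Mgp (1834 CPM) and Foxc2 (48.6 CPM).

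SIRMu-1 replicate 2 was low in the medians of the lists of mitosis (3.38 log2 CPM), chromatin (4.67 log2 CPM) and astrocyte markers (-0.70 log2 CPM), and high for Igfbp3 (138 CPM) and Cdkn2b (263 CPM). Replicate 1 had a high median of the antioxidant list (6.86 log2 CPM), replicate 3 a low level of Shmt2 (214 CPM), replicate 4 a high level of Cdh2 (23.7 CPM) and replicate 5 a high level of Dcn (20.3 CPM).

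Cspg4, Notch3, Hes1, Notch1, Lhx2 and Pax6 aside, the lines differed from each other in 52 of the 87 genes tested that the text gives. The test was edgeR's quasi-likelihood test at an adjusted p under 0.05. The 52 genes are given here with the log2 difference SIRMu-1 minus rMC-1. Among genes above primary cultures in every line library these were Mki67 (-1.56), Top2a (-2.41), Depdc1 (-1.68), Tk1 (-1.48), Mybl2 (-2.71), Mcm5 (-3.09), Cdk1 (-2.09), Lmnb1 (-1.73), Uhrf1 (-2.40), Asf1b (-2.55), Clspn (-2.48), E2f7 (-2.93), Cdkn2c (-0.93), Psat1 (-1.45), Shmt2 (-0.51), Idi1 (-1.09), Fbl (-0.89), Dkc1 (-0.54), Tead2 (-0.77) and Krt8 (-2.29). Among genes below primary cultures in every line library, SIRMu-1 was higher for Grem1 (6.53), Sod3 (6.61), Glb1l (0.47), Serpine2 (7.84), Unc5c (8.41), Igfbp3 (8.33), Igfbp5 (5.59), Ctsh (8.84), Ctsl (0.58), Glb1 (1.15), Hmox1 (2.22), Cdkn1a (3.64) and Vim (1.37). SIRMu-1 was lower for Apoe (-1.14) and Ccl2 (-3.25). Among genes that did not separate, the lines differed for Mdm2 (1.08), Col1a1 (3.52), Fn1 (4.56), Sox9 (10.91), Rlbp1 (-2.51), Gfap (-1.75), Cdkn2a (-1.69), Tert (2.34), Myc (-2.33), Map2 (3.36), Twist1 (1.38), Flt1 (6.06) and Foxc2 (11.40). For Igf1 (-8.41), Sox2 (-11.80), Stmn2 (13.36) and Col15a1 (11.96) one of the lines had 3 counts or fewer over its libraries, so these fitted values depend on the prior count and are no measured fold. Sox9, Unc5c and Foxc2 had 4, 6 and 7 counts over the rMC-1 libraries, so the size of their differences is uncertain too.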

How the results depend on the processing

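Counts of genes were most sensitive to fitting 1 mean for both lines, to pooling and to a fold minimum. Equal weight per library was fitted as 1 mean over all line libraries, so differences between the lines entered the spread. With it 3727 genes were called, 1883 higher and 1844 lower, and the median of all genes shifted by 0.12 on the log2 scale. The parts of weight and spread in this count were not tested. With the counts of libraries that share a file-name code added up, which leaves fewer samples to separate, 2375 genes were separated above and 2391 below, of which 2183 and 2282 were called. No source used here explains that code. With SIRMu-1 limited to its libraries with drugs, 6948 genes were called, and 1834 were separated and called higher and 2007 lower. With a fold minimum of 2, 2604 genes were called (662 higher, 1942 lower), 99 were separated above and 552 below, all of them called, and the lines differed in 2786. With the replicate block 7182 genes were called, and 1380 of the 1385 higher and 1434 of the 1439 lower genes stayed separated and called. Sox2 (-2.23, edgeR adjusted p = 0.0289) and Flt1 (1.60, 0.00635) passed under that block, and Gfap (-1.04, 0.101) and Foxc2 (-1.63, 0.0981) no longer did. The other scalings, filters and DESeq2, and each library left out in turn, kept every one of these counts within 1.5 times. Leaving out 1 library gave 6733 to 7420 called genes, 1341 to 1637 separated and called higher and 1464 to 1749 lower. Of 1899 values of the 87 genes under the alternatives, 1841 kept direction and side of the threshold, 45 lost the call, 9 gained it and 4 changed sign. Sox2 (1.16) and Foxc2 (2.77) changed sign with equal weight per library, and Cdkn2a with the replicate block (0.0074), and its values ranged from -0.72 to 0.40 with 1 primary or line library left out. The causes were not tested. Genes at a few counts are limited by depth, and no retinal tissue was measured.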

Other observations

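Most of the shared changes lay outside the gene lists. Of the 1385 genes separated and called higher, 217 stood in a list and 1168 in none, and of the 1439 lower genes 135 stood in a list and 1304 in none.

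A set of genes was found in primary cultures and in no line library. With at least 100 counts over the primary libraries and 0 over all 8 line libraries there were 76 genes, of which 66 had counts in every primary library. They are named here after their values were seen, with folds against a floor of 3 counts over the lines. Tmem117, a membrane protein, had 2241 counts (14.1 to 29.3 CPM) and was at least 2021-fold lower in the lines. Pde7b, a phosphodiesterase of cyclic AMP, had 1365 counts and was at least 1231-fold lower. Tfpi2, an inhibitor of matrix-degrading serine proteases, had 1354 counts and was at least 1221-fold lower. Rab38, a GTPase of melanosomes, had 622 counts, Prom1, a membrane protein of stem cells and photoreceptors, 136 counts, and Ret, the receptor of the GDNF family, 108 counts. Ptgds, a prostaglandin synthase and Müller glia marker, had 299 counts, from 0.0447 to 12.3 CPM across primary libraries. In the other direction 6 genes had no count in primary cultures and at least 100 in the lines, and 1 of them, Grhl2, an epithelial transcription factor, had counts in every line library (8 in SIRMu-1 and 1718 in rMC-1). Hoxb9 (3011 counts) and Hoxb8 (128 counts), which pattern the trunk, were found in rMC-1 alone of the 3 groups.

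The summed level of the Y-linked genes Ddx3y and Eif2s3y was 0.711 to 18.9 CPM in primary cultures, 124 to 217 CPM in SIRMu-1 and 0.0263 to 0.144 CPM in rMC-1. These cultures thus differed in Y-linked RNA, and its part in other differences was not tested.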
